A study of Arabidopsis thaliana with 30 samples.

Results

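The 6 arrays described here measured the answer of Arabidopsis flu seedlings to strong light, with 3 arrays before and 3 after the treatment, labelled as biological replicates. They were chosen by genotype and time from 30 arrays, which cover 5 lines at 2 times. The plants were Col-0 seedlings carrying the flu mutation, harvested without roots at 12 days. They had been grown on agar with 1% sucrose and kept for 7 days in continuous light of 10 µE m-2 s-1. The 0 h group had no high light, and the 3 h group stood for 3 h in darkness and then for 3 h in light of 1000 µE m-2 s-1. Darkness, high light and the hours that passed therefore cannot be told apart in this comparison, and whether the 0 h plants were also darkened is not given in the sources used here. The wild type used for comparison was Col-0 with the same times and treatment, again 3 arrays each. Seedlings of the remaining 3 lines, mbs1-1, RNAi-MBS2/mbs1-1 and 35S:MBS1, enter only the shared estimate of spread and a few values named as theirs.

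FLU is a nuclear gene whose protein holds back the first steps of chlorophyll synthesis in the dark. Without it, plants gather protochlorophyllide, the last dark intermediate, and this pigment passes light energy to oxygen and makes singlet oxygen in the chloroplast. Signals from the chloroplast then reach the nucleus, in part through the EXECUTER proteins, and change the activity of many nuclear genes. Strong light by itself also loads the photosystems, warms the leaf and calls on chaperones, antioxidants and sunscreen pigments.

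The deposited values are log2 signals after RMA, and every level below is on that scale. Differences are log2 fold changes at 3 h against 0 h ± SE from limma, with 3 arrays in each group throughout, and a gene was called at an adjusted p under 0.05. The number of arrays limits the precision of each value. Fold changes of genes near the bottom of the scale can be understated, since the 10th percentile of the flu arrays was 2.94 to 3.07 and no detection calls were used. Of 22746 probe sets 48.1% were called, 23.0% higher and 25.1% lower. A called gene is thus common here, and each count below should be read against those shares. List counts cover only members with a probe set matched to that gene alone. Examples are 21 of 224 cytochrome P450 genes and 6 of 67 WRKY factors, so a count does not speak for a whole family. A change of at least 1 was called for 4481 probe sets, 2495 higher and 1986 lower, and 274 of the former rose by at least 3. The groups did not overlap for 51.8% of probe sets.

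The label of the plants could be checked only in part. No probe set was matched to FLU alone, so the mutated gene gives no check. RCA, the activator of Rubisco in green tissue, read 11.87 to 12.90 over the 6 arrays, and EXPA7, an expansin of root hairs, read 2.65 to 3.09. The epidermal gene FDH fell by 1.09. The stomatal lineage gene SPCH fell by 0.61, from 6.31 to 6.78 down to 5.63 to 6.10. MUTE of the same lineage differed by -0.30 with overlapping groups. The meristem genes UFO (3.03 to 3.44) and CLV3 (2.53 to 3.07) stayed near the bottom of the scale. In bulk tissue fewer cells of a type and less RNA per cell cannot be told apart. Of the RNA controls, the 3' minus 5' signal of actin was 6.13 to 6.56 at 0 h and 6.93 to 6.98 at 3 h, and the 25S rRNA signal 4.80 to 5.31 and 4.27 to 4.49. The GAPDH control overlapped, at 3.78 to 3.92 and 3.29 to 3.79. The part of these differences in the results was not tested.

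Some flu arrays differed from the others of their group in whole sets of genes. The genes with the widest spread were chosen after their values were seen. PDF1.2, a plant defensin switched on by jasmonate and ethylene, read 8.04, 13.66 and 5.92 in replicates 1, 2 and 3 at 0 h and 9.14, 7.32 and 9.64 at 3 h. OSM34, an osmotin-like defence gene, read 9.33, 12.21 and 4.0 at 0 h and 12.15, 8.70 and 11.19 at 3 h. Replicate 2 was highest and replicate 3 lowest at 0 h in both, and the times overlapped. PDF1.2b, a near copy of PDF1.2, behaved in the same way, at 7.53, 13.16 and 5.49 at 0 h. A second pattern set AT3G29970 (10.55, 9.78 and 4.32 at 0 h) and AT2G17850 (9.65, 8.44 and 3.41 at 0 h) low in replicate 3 alone. AT2G17850 was called lower at 3 h (-3.92 ± 1.1, adjusted p = 0.00406). At -2.68 without 0 h replicate 1 it was not (adjusted p = 0.0521), and it was -3.28 without replicate 2 and -5.80 without replicate 3. In a fit to the compared arrays alone AT2G17850 was not called (adjusted p = 0.0558). At 3 h, replicate 3 stood low for AT3G02480 (12.16, 11.49 and 8.95) and COR15A (12.62, 12.24 and 10.56). At 0 h, replicate 1 stood low for plastid transcripts, with psaC, the gene of a photosystem I iron-sulphur subunit, at 5.59, 10.08 and 10.29. The plot of levels by array shows these sets side by side. For some of the values they touch, the change without the array is given below.

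**Figure D1:**
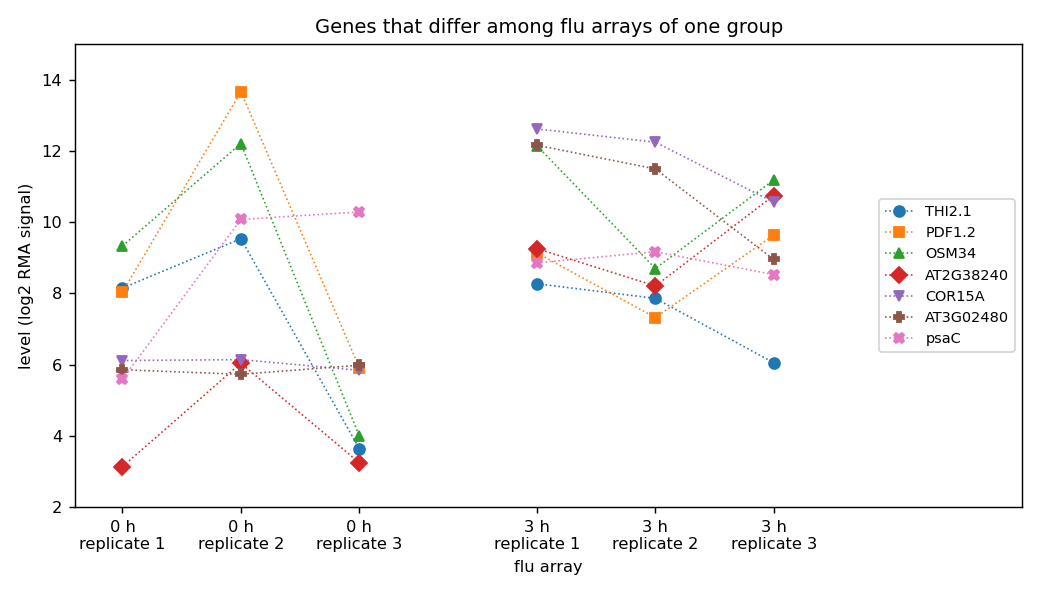
Levels (log2 RMA signal, vertical axis) of 7 genes, AT2G38240 and THI2.1 among them, on each of the 6 flu arrays (horizontal axis, 3 replicates at 0 h on the left and 3 at 3 h on the right); dotted lines join one gene within a group and stand for no order. PDF1.2 and OSM34 peak in 0 h replicate 2, psaC is lowest in 0 h replicate 1, and COR15A and AT3G02480 are lowest of the 3 h arrays in replicate 3.

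Genes known to answer singlet oxygen were mostly higher at 3 h. Of 8 measured genes that either answer singlet oxygen in flu or belong to its signalling, 5 rose and none fell, with a median change of 2.57 against -0.05 over all probe sets. CML37, a calmodulin-like calcium sensor, read 4.75, 5.40 and 4.76 at 0 h and 10.26, 10.61 and 10.83 at 3 h. All 3 arrays at 3 h lay more than 4 units above every array at 0 h, and the change was 5.60 ± 0.26 (adjusted p = 3.33e-15). AT3G01830, a gene of the singlet oxygen list, went from 4.23, 4.15 and 3.81 to 9.48, 9.49 and 9.99. Its groups were far apart as well, with a change of 5.59 ± 0.29 (adjusted p = 2.89e-14). STZ, a zinc finger repressor of many stress pathways, rose from 7.94, 7.53 and 8.21 to 10.76, 10.69 and 11.23 (3.00 ± 0.38, adjusted p = 2.31e-07). AT5G64870 rose from 5.88, 5.61 and 6.04 to 8.16, 8.24 and 9.07 (2.64 ± 0.26, adjusted p = 2.62e-09). The fifth, CML38, is a close relative of CML37.

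Not every singlet oxygen gene moved. AT3G28580, an often used marker, read 5.13, 5.76 and 4.6 at 0 h and 5.55, 5.58 and 6.57 at 3 h. Its groups overlapped, and the change of 0.73 ± 0.46 was not called (adjusted p = 0.206). No probe set was matched to BAP1 alone, the second marker looked for. The EXECUTER gene EX1, which was named after its values were seen, read 8.34 to 8.73 at 0 h and 8.46 to 8.63 at 3 h (0.04 ± 0.16, adjusted p = 0.871). AT3G13610, also named after its value was seen, differed by 0.29 ± 0.52.

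Calcium genes moved both ways. Of 14 calmodulin-like proteins and glutamate receptor-like channels 6 rose and 3 fell, with a median of 0.30, and CML37 and CML38 of the singlet oxygen list are among the rises. GLR2.7, a glutamate receptor-like channel, rose from 7.01, 7.23 and 6.87 to 9.91, 10.07 and 9.65 (2.84 ± 0.21, adjusted p = 2.16e-11). CML38 rose from 7.62, 7.31 and 7.76 to 9.72, 10.11 and 10.33 (2.49 ± 0.31, adjusted p = 1.57e-07). CML30 fell from 10.63, 10.64 and 10.96 to 8.50, 8.83 and 8.43 (-2.16 ± 0.15, adjusted p = 6.57e-12). None of these groups overlapped.

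All 6 measured genes of the small heat shock list rose. HSA32 is in the list but is no small heat shock protein. Small heat shock proteins hold unfolding proteins in a soluble state until larger chaperones refold them. AT1G52560 read 4.90, 5.02 and 6.58 at 0 h and 10.13, 10.17 and 11.51 at 3 h (5.10 ± 0.59, adjusted p = 5.92e-08). ATHSP22.0 went from 4.17, 4.78 and 5.14 to 8.81, 8.78 and 10.28 (4.59 ± 0.77, adjusted p = 1.54e-05). Replicate 3 was the highest of its group in both genes at both times, yet the groups stayed apart. AT1G53540 went from 7.89, 9.79 and 11.01 to 13.17, 13.04 and 13.78 (3.77 ± 0.95, adjusted p = 0.0017). Its 0 h arrays were the most scattered of the 6 genes, so that the change was 2.94 without 0 h replicate 1 and 4.5 without 0 h replicate 3. AT2G29500 rose by 3.63 ± 0.46 (adjusted p = 2.35e-07) to between 12.88 and 13.50, and AT1G54050 by 2.96 ± 0.39 (adjusted p = 3.76e-07) to between 12.04 and 12.35. The smallest change was that of HSA32, a protein of long-lasting heat tolerance, from 7.18 to 7.63 up to 8.32 to 9.37 (1.24 ± 0.23, adjusted p = 5.91e-05).

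The larger chaperones and their partners rose as well. Of 8 listed genes 6 rose and none fell, with a median of 2.00. AT1G71000 had the highest change of all singly named genes, from 3.45, 3.90 and 4.13 to 10.42, 10.51 and 10.32 (6.59 ± 0.34, adjusted p = 2.55e-14). The arrays at 3 h lay within 0.2 of each other and more than 6 above those at 0 h. Fes1A, a partner that loads and unloads HSP70, went from 6.06, 6.71 and 6.26 to 10.65, 10.62 and 10.90 (4.38 ± 0.28, adjusted p = 1.13e-12). Hop3, which links HSP70 to HSP90, rose by 3.04 ± 0.37 (adjusted p = 1.57e-07), and AT5G48570 by 2.56 ± 0.45 (adjusted p = 3.02e-05). Both uncalled members, Hop1 (0.25 ± 0.11) and CLPB2 (0.08 ± 0.13), were named after their values were seen.

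Relatives within chaperone families parted ways. In a wider list of 18 chaperones and partners, put together from annotated names after the files were read, 14 rose and 2 fell. The 2 that fell were named after their values were seen. They were Fes1B, from 8.50, 8.12 and 8.97 to 6.30, 6.68 and 6.25 (-2.12 ± 0.25, adjusted p = 7.81e-08), and Fes1C, from 7.58, 7.69 and 8.26 to 6.04, 6.19 and 6.15 (-1.72 ± 0.18, adjusted p = 9.62e-09). Both are paralogs of Fes1A and moved against it. Hsp70-2, a cytosolic HSP70, rose from 8.32, 8.03 and 7.68 to 11.81, 11.83 and 12.29 (3.96 ± 0.18, adjusted p = 1.96e-15). Probe sets of near-identical family members can share signal, which was not tested.

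Genes of the unfolded protein response in the endoplasmic reticulum rose by smaller amounts. Of 7 listed genes 6 rose and none fell, with a median of 0.79. One of these calls was lost when arrays were centred on their median, and one without 0 h replicate 1, 0 h replicate 2 or 3 h replicate 3. ATERDJ3B, a J-domain partner of the reticulum HSP70, went from 8.93, 9.19 and 8.80 to 10.79, 10.66 and 10.96 (1.83 ± 0.12, adjusted p = 2.96e-12). BZIP60, the transcription factor that is spliced to carry the stress signal, went from 9.04, 9.60 and 9.46 to 10.98, 11.12 and 11.39 (1.79 ± 0.20, adjusted p = 3.63e-08). The groups were apart by more than 1 unit in both. CRT1b, a calreticulin that folds glycoproteins, rose by 0.95 ± 0.12 (adjusted p = 3.02e-07), and DER1, a derlin of protein export for degradation, by 0.79 ± 0.14 (adjusted p = 4.74e-05).

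Not all reticulum genes rose. A wider list of 15 genes of folding and degradation there, chosen from annotated names after the files were read, had 6 rises and 5 falls with a median of 0.05. DER2.1, a second derlin, fell from 10.25, 10.33 and 10.74 to 8.66, 8.72 and 8.94 (-1.66 ± 0.16, adjusted p = 2.54e-09). ENGase85A, an enzyme that trims sugar chains from glycoproteins, fell by 1.13 on the log2 scale (SE 0.19, adjusted p = 1.79e-05).

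**Figure D2:**
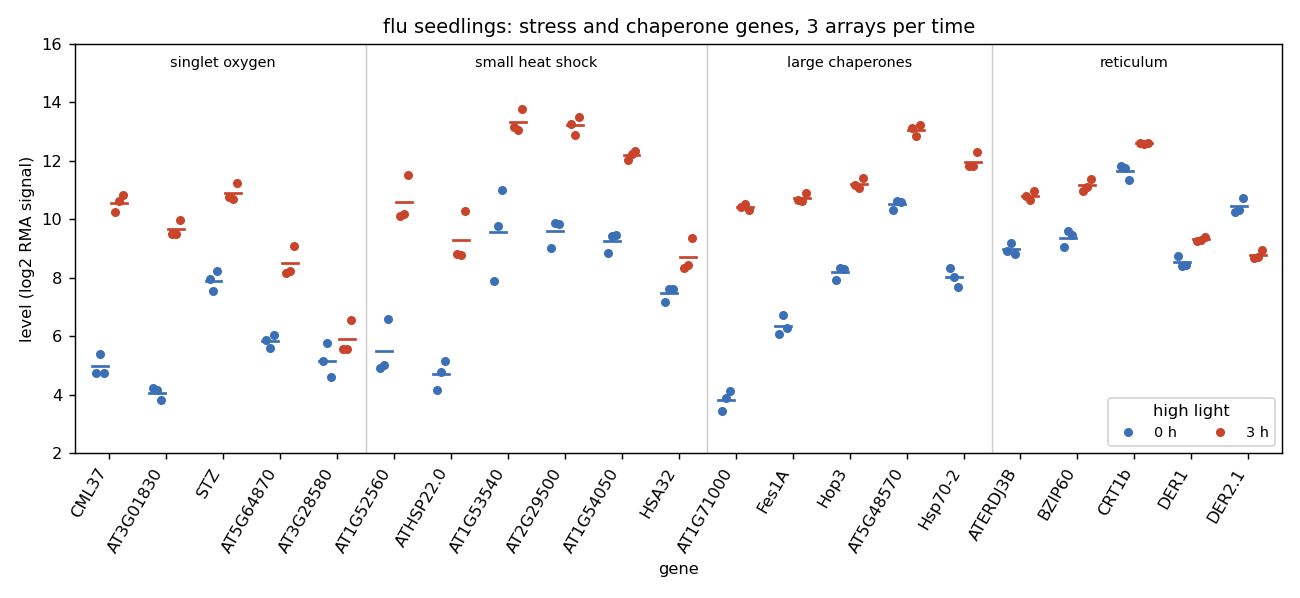
Levels (log2 RMA signal, vertical axis) of singlet oxygen, small heat shock, large chaperone and reticulum genes (horizontal axis) in flu seedlings; each point is an array, blue for 0 h and red for 3 h of high light, and each bar the mean of 3 arrays. The 3 h points lie above all 0 h points for every gene shown except AT3G28580, where they overlap, and DER2.1, where they lie below.

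Genes of cold and drought protection were among those with the greatest rises. Dehydrins and late embryogenesis proteins shield membranes and proteins when cells lose water, and COR15 proteins do so inside the chloroplast. Of 9 such genes 7 rose and none fell, with a median of 2.57, and 6 rose without 0 h replicate 3. LTI30, a dehydrin, read 4.18, 3.62 and 3.48 at 0 h and 10.09, 10.13 and 9.72 at 3 h (6.22 ± 0.39, adjusted p = 9e-13). COR15B went from 6.51, 6.15 and 6.66 to 12.71, 12.68 and 11.44 (5.84 ± 0.34, adjusted p = 1.79e-13). COR15A went from 6.12, 6.14 and 5.84 to 12.62, 12.24 and 10.56 (5.77 ± 0.33, adjusted p = 1.83e-13). In both COR15 genes the groups were far apart, and 3 h replicate 3 lay more than 1 unit below its companions. Without it the change of COR15A was 6.40.

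The same array was low in LEA4-5 and AT3G02480. LEA4-5 went from 5.73, 5.70 and 5.79 to 9.37, 9.07 and 6.75 (2.66 ± 0.40, adjusted p = 3.47e-06), and its change was 3.48 without 3 h replicate 3. AT3G02480 went from 5.86, 5.73 and 5.99 to 12.16, 11.49 and 8.95 (5.01 ± 0.69, adjusted p = 8.22e-07). Its change was 5.97 without 3 h replicate 3 and 4.36 without 3 h replicate 1.

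Jasmonate is the wound hormone, made from chloroplast lipids. Of 4 genes of its synthesis and conversion 2 rose and 1 fell. JMT, which methylates jasmonate, went from 2.82, 2.98 and 3.28 to 6.49, 5.21 and 6.55 (3.06 ± 0.24, adjusted p = 6.97e-11). OPCL1, which readies a precursor for shortening in peroxisomes, went from 7.04, 7.53 and 6.59 to 8.77, 8.91 and 9.22 (1.91 ± 0.19, adjusted p = 3.97e-09). The groups of both were apart. AIM1 of peroxisomal beta-oxidation fell by 0.48 (SE 0.12, adjusted p = 0.00228), and the lipase gene DGL differed by 0.13 ± 0.14 at levels near the bottom of the scale.

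Of 5 genes of jasmonate signalling and response 1 rose and 1 fell, with overlapping groups in all 5 and both calls lost without single arrays. JAL23, a jacalin-related lectin, read 5.90, 9.02 and 4.28 at 0 h and 8.49, 7.82 and 9.19 at 3 h (2.1 ± 0.62, adjusted p = 0.00638). Without 0 h replicate 2 its change was 3.41, and without 0 h replicate 3 it was 1.04 and no longer called (adjusted p = 0.114). In a fit to the compared arrays alone JAL23 was not called either (adjusted p = 0.154). THI2.1, a thionin, read 8.15, 9.54 and 3.64 at 0 h and 8.27, 7.86 and 6.05 at 3 h, with a change of 0.29 ± 0.78 (adjusted p = 0.799). That change was -0.15 without 3 h replicate 1, -1.45 and called without 0 h replicate 3 (adjusted p = 0.00577), 1.5 without 0 h replicate 2 and 0.96 without 3 h replicate 3. PDF1.2 (-0.51 ± 1.15, adjusted p = 0.757) was likewise 1.72 without 0 h replicate 2, -2.15 without 0 h replicate 3 and 0.18 without 3 h replicate 2, none of them called. The transcription factor MYC3 fell by 0.57 (SE 0.17, adjusted p = 0.00662). Its call was lost without 0 h replicate 2 (-0.44, adjusted p = 0.0542) or 0 h replicate 3 (-0.43, adjusted p = 0.0584). The same held in a fit to the compared arrays alone (adjusted p = 0.0893). MYC4 differed by -0.05 ± 0.21 (adjusted p = 0.881).

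Detoxifying enzymes were split, with a few members rising steeply. Glutathione transferases couple glutathione to reactive molecules, and of 14 measured 3 rose and 3 fell, with a median of 0.02. Over all probe sets 23.0% were called higher and 25.1% lower, so these counts are not unusual. Without 0 h replicate 2 the counts were 5 and 3, and without 3 h replicate 3 they were 3 and 1. The 3 that rose are all of the tau class. GSTU25 went from 3.86, 4.48 and 3.78 to 8.29, 8.51 and 9.26 (4.65 ± 0.71, adjusted p = 4.12e-06). GSTU28 went from 3.81, 4.17 and 4.85 to 8.02, 7.59 and 7.77 (3.52 ± 0.24, adjusted p = 5.88e-12). GSTU22 went from 4.81, 4.32 and 4.49 to 7.22, 7.54 and 8.65 (3.26 ± 0.40, adjusted p = 1.59e-07). In each the 3 h arrays lay more than 2 units above those at 0 h, while GSTU18 fell by 0.68 (SE 0.16, adjusted p = 0.000666).

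Glycosyltransferases of family 1 attach sugars to hormones, flavonoids and foreign compounds. Of 48 measured 23 rose and 10 fell, with a median of 0.31 and a range from -3.07 to 5.40. UGT84A1, which acts on hydroxycinnamic acids, read 5.47, 5.59 and 5.91 at 0 h and 10.96, 11.12 and 11.09 at 3 h (5.40 ± 0.14, adjusted p = 5.45e-20). The arrays of a group lay within 0.5 of each other. UGT76E12 went from 5.18, 6.50 and 4.5 to 9.92, 9.90 and 10.66 (4.77 ± 0.38, adjusted p = 7.46e-11). UGT73C1 rose by 4.5 ± 0.30 (adjusted p = 2.23e-12). UGT73B4 went from 5.21, 5.86 and 4.74 to 9.23, 9.43 and 9.82 (4.22 ± 0.41, adjusted p = 2.9e-09). Cytochrome P450 genes moved the other way more often, with 1 of 21 higher and 9 lower and a median of -0.21. CYP71B22 (-2.86 ± 0.31, adjusted p = 1.98e-08), CYP71B24 (-1.72 ± 0.28, adjusted p = 1.14e-05) and CYP71B34 (-1.14 ± 0.13, adjusted p = 5.72e-08) fell, and CYP71B26 rose (1.13 ± 0.15, adjusted p = 3.44e-07).

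Enzymes that remove reactive oxygen went both ways. Of 56 listed genes 9 were measured, and of these 2 rose and 3 fell, with a median of -0.21. Over all probe sets 23.0% were called higher and 25.1% lower, so such counts are not unusual. The 2 chloroplast ascorbate peroxidases, which destroy hydrogen peroxide, moved in opposite directions. SAPX of the stroma went from 9.95, 9.72 and 9.52 to 11.19, 11.23 and 11.29 (1.51 ± 0.23, adjusted p = 5.37e-06). TAPX of the thylakoid membrane went from 10.48, 10.52 and 10.47 to 9.10, 9.23 and 8.89 (-1.42 ± 0.14, adjusted p = 6.01e-09). Neither had overlapping groups. GR1, a glutathione reductase, rose from 11.30, 11.54 and 11.12 to 12.81, 12.75 and 12.68 (1.43 ± 0.11, adjusted p = 2.27e-11). CCS, the copper chaperone of superoxide dismutase, fell by 1.06 (SE 0.14, adjusted p = 7.78e-07), and the third that fell was SRX, a sulfiredoxin named after its value was seen.

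Methionine sulfoxide reductases repair oxidised methionine, and 4 of 5 rose. The list was drawn from annotated names after the files were read. MSRB6 went from 9.12, 9.64 and 9.81 to 11.89, 12.06 and 12.39 (2.59 ± 0.19, adjusted p = 1.55e-11). MSRB9 went from 9.95, 10.53 and 8.56 to 11.61, 11.39 and 12.51 (2.16 ± 0.48, adjusted p = 0.000436). MSRB3 rose by 0.59 ± 0.14 (adjusted p = 0.000755) and MSRA5 fell by 0.89 (SE 0.12, adjusted p = 9.72e-07). MSRB5 rose by 0.53 ± 0.20 (adjusted p = 0.0283). That call was lost without 0 h replicate 3 (0.35, adjusted p = 0.192), 3 h replicate 2 (0.52, adjusted p = 0.0657) or 3 h replicate 3 (0.50, adjusted p = 0.0729), and after median centring (0.44, adjusted p = 0.064).

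The alternative NADH dehydrogenases, which pass on electrons without pumping protons, gave 3 rises and 1 fall among 5. NDB2 went from 5.39, 6.0 and 5.52 to 9.18, 8.98 and 9.79 (3.68 ± 0.33, adjusted p = 6.38e-10). Its groups did not overlap. NDB4 rose by 0.72 ± 0.18 (adjusted p = 0.00174), but by 0.40 without 3 h replicate 3, and its call was lost in a fit to the compared arrays alone (adjusted p = 0.0589). NDB1 fell by 0.69 (SE 0.12, adjusted p = 2.45e-05) and NDB3 differed by 0.19 ± 0.13 (adjusted p = 0.275), which was called at 0.38 without 0 h replicate 3 (adjusted p = 0.0145). NDC1 rose by 0.39 ± 0.14 (adjusted p = 0.02). It was not called after median centring (0.30, adjusted p = 0.0733) or quantile normalization (0.30, adjusted p = 0.0771). Its call was also lost without 0 h replicate 3 (0.28, adjusted p = 0.129) or without 3 h replicate 2 (0.35, adjusted p = 0.0668). The same held in a fit to the compared arrays alone (adjusted p = 0.0629).

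Transcripts of the mitochondrial chromosome were higher or not called. Of 16 measured 5 rose and none fell, with a median of 0.33. The largest change was in cox2, a subunit of the terminal oxidase, from 6.12, 6.68 and 7.00 to 7.49, 7.69 and 7.78 (1.05 ± 0.24, adjusted p = 0.000744). The complex I genes nad6 (0.98 ± 0.17, adjusted p = 3.29e-05), nad4L (0.95 ± 0.24, adjusted p = 0.00138) and nad9 (0.88 ± 0.20, adjusted p = 0.000606) rose by similar amounts. Of the 16 genes 13 were lowest of the 0 h arrays in replicate 1, the array that was also low for plastid transcripts. Leaving out 1 flu array at a time gave 0.81 to 1.25 for cox2 and 0.87 to 1.13 for nad6. For nad4L it gave 0.63 to 1.12 and for nad9 0.59 to 1.03.

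Flavonoids serve as sunscreen and include anthocyanin pigments, and genes of their list rose in part. Of 9 measured 6 rose and none fell, with a median of 1.5, and 7 rose without 0 h replicate 2 or without 3 h replicate 2. All 6 were genes of family 1 glycosyltransferases. UGT84A1 and UGT84A3 among them act on hydroxycinnamic acids. Under the names used here, 5 bear that of the UGT family. The other, AT1G06000, went from 6.07, 6.04 and 3.96 to 10.42, 10.20 and 10.43 (5.0 ± 0.31, adjusted p = 7.67e-13). Its 0 h replicate 3 was low, and the change without it was 4.3. UGT78D2, which adds glucose to flavonols and anthocyanidins, went from 7.51, 7.44 and 7.76 to 11.29, 11.25 and 11.17 (3.67 ± 0.11, adjusted p = 9.12e-19). UGT84A3 rose by 1.99 ± 0.17 (adjusted p = 3.22e-10). DFR, the step that commits to anthocyanin and named after its value was seen, was not called (0.50).

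The 3 LHCB4 transcripts of the chloroplast antenna did not move together. LHCB4 proteins, also called CP29, connect the outer antenna to photosystem II, and Arabidopsis has 3 genes for them. LHCB4.1 read 13.58, 13.90 and 13.75 at 0 h and 13.20, 13.18 and 12.95 at 3 h (-0.63 ± 0.11, adjusted p = 4.02e-05). LHCB4.2 read 13.85, 13.88 and 14.05 at 0 h and 11.03, 11.43 and 10.43 at 3 h (-2.96 ± 0.16, adjusted p = 5.05e-14). LHCB4.3 read 7.57, 7.23 and 7.08 at 0 h and 8.68, 8.79 and 8.87 at 3 h (1.48 ± 0.17, adjusted p = 4.86e-08). The 2 major forms fell and the minor form rose, with no overlap in any of them. LHCB4.2 also had the greatest fall among named genes with a mean of at least 12 on the flu arrays.

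Other measured nuclear genes of photosynthesis mostly fell by less than 1 unit. Of 37 listed subunit genes 6 were measured and 5 of these fell, with a median of -0.65. PSAE-1 of photosystem I went from 13.89, 13.95 and 13.99 to 13.15, 13.07 and 13.08 (-0.84 ± 0.10, adjusted p = 1.04e-07). PSAN of photosystem I (-0.81 ± 0.11, adjusted p = 7.18e-07), PSBW (-0.81 ± 0.13, adjusted p = 7.9e-06) and PSBY (-0.50 ± 0.10, adjusted p = 0.000113) of photosystem II fell too. PGRL1B of cyclic electron flow fell by 0.46 (SE 0.13, adjusted p = 0.00579). That call was lost without 0 h replicate 3 (-0.33, adjusted p = 0.063) or 3 h replicate 3 (-0.35, adjusted p = 0.054). PGRL1B was also not called in a fit to the compared arrays alone (adjusted p = 0.0827). ATPC1 of the ATP synthase differed by -0.27 ± 0.12 (adjusted p = 0.065). It was called after median centring (-0.36, adjusted p = 0.0124) and without 0 h replicate 1 (-0.38, adjusted p = 0.0149), 3 h replicate 1 (-0.33, adjusted p = 0.0448) or 3 h replicate 2 (-0.36, adjusted p = 0.0248).

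Transcripts of carbon fixation followed in part. PRK, which regenerates the acceptor of carbon dioxide, went from 12.03, 12.26 and 12.51 to 11.49, 11.54 and 11.06 (-0.90 ± 0.14, adjusted p = 4.24e-06). RCA fell by 0.68 (SE 0.11, adjusted p = 5.2e-06). SBPASE, a phosphatase of the same cycle, differed by -0.25 ± 0.11 (adjusted p = 0.0571). It was called after median centring (-0.34, adjusted p = 0.0121) and without 0 h replicate 1 (-0.33, adjusted p = 0.0204) or 3 h replicate 2 (-0.35, adjusted p = 0.0162).

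A wider list of 28 photosynthesis, assembly and NDH complex genes was drawn from annotated names after the files were read and includes those above. It held 22 falls and 1 rise, that of LHCB4.3, with a median of -0.74. TRXF2, a thioredoxin that switches on Calvin cycle enzymes, went from 10.31, 10.37 and 10.52 to 7.82, 8.04 and 7.15 (-2.73 ± 0.19, adjusted p = 7.77e-12). PAM68, an assembly factor of photosystem II, went from 10.22, 9.82 and 9.91 to 8.38, 8.73 and 8.19 (-1.55 ± 0.15, adjusted p = 1.64e-09). Of the 28 genes, 14 responded lower in flu than in wild type by the test of the difference. Over all probe sets 8.41% passed that test in either direction. The list was drawn up with earlier results known, so its count is a description and no test of the list.

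Of 3 photoprotection genes, CHL, a lipocalin of the chloroplast that protects thylakoid lipids, rose from 9.89, 9.49 and 9.38 to 11.43, 11.53 and 11.13 (1.78 ± 0.13, adjusted p = 1.67e-11). The light-harvesting-like genes LIL3:1 and LIL3:2, whose products hold the last enzymes of chlorophyll synthesis at the membrane, parted. LIL3:2 fell by 1.06 (SE 0.15, adjusted p = 1.16e-06), and LIL3:1 differed by 0.16 ± 0.13 with overlapping groups (adjusted p = 0.328).

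Most measured transcripts of the pathway that the flu mutation releases fell. Of 11 genes of tetrapyrrole synthesis 7 fell and 1 rose, with a median of -0.84. CHLM, the methyltransferase that follows insertion of magnesium, went from 12.18, 12.28 and 12.43 to 10.32, 10.34 and 9.79 (-2.14 ± 0.16, adjusted p = 2.17e-11). PORB, which turns protochlorophyllide into chlorophyllide in the light, went from 11.38, 11.38 and 11.82 to 9.52, 9.54 and 9.31 (-2.07 ± 0.19, adjusted p = 1.08e-09). The groups of both were more than 1 unit apart. The genes hemf2 (-1.36 ± 0.19, adjusted p = 1.29e-06) and HEME2 (-1.16 ± 0.16, adjusted p = 9.63e-07), whose enzymes make the porphyrin ring before the chlorophyll and heme branches part, fell as well. HEMA2, a glutamyl-tRNA reductase gene of the first committed step and the only riser, went from 5.81, 6.11 and 6.45 to 6.78, 6.83 and 7.12 (0.79 ± 0.14, adjusted p = 3.23e-05). It was named after its value was seen.

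**Figure D3:**
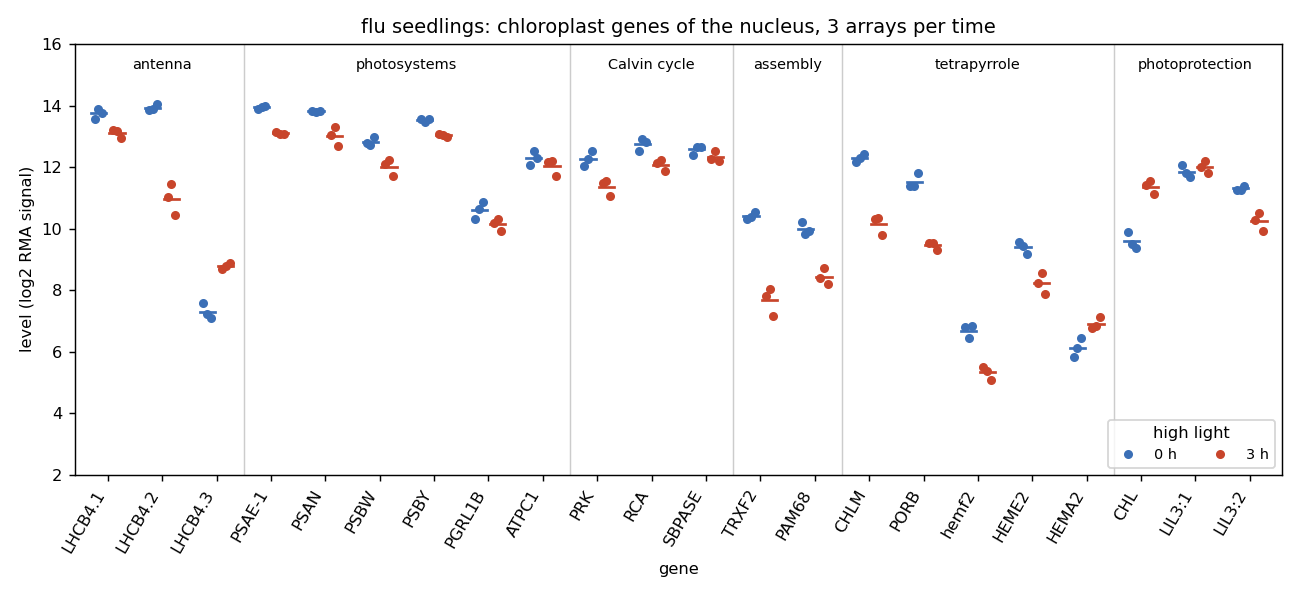
Levels (log2 RMA signal, vertical axis) of nuclear genes of the chloroplast (horizontal axis) in flu seedlings; each point is an array, blue for 0 h and red for 3 h of high light, and each bar the mean of 3 arrays. LHCB4.3, HEMA2 and CHL lie higher at 3 h, the times overlap for PGRL1B, ATPC1, SBPASE and LIL3:1, and LHCB4.2 shows the greatest drop.

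The count of falls among transcripts of the plastid chromosome itself depended on single arrays. Of 69 measured 20 fell and none rose, with a median of -0.32, where 25.1% of all probe sets were called lower and 23.0% higher. In flu 0 h replicate 1, 68 of the 69 read lowest of the 3 arrays, with a median gap of -1.07 to the mean of the other two. Without that array 54 fell, without 0 h replicate 2 12 fell, and without 0 h replicate 3 9 fell. Leaving out 3 h replicate 3 gave 12 falls, and no setting gave a rise. The greatest called changes were those of psbI (-0.82 ± 0.24, adjusted p = 0.0057), psbT (-0.79 ± 0.32, adjusted p = 0.0421), ndhJ (-0.79 ± 0.21, adjusted p = 0.00253) and psbH (-0.79 ± 0.27, adjusted p = 0.0161). In psbI, a photosystem II subunit gene, the arrays read 9.48, 10.13 and 10.39 at 0 h and 8.82, 9.46 and 9.26 at 3 h. The call of psbI was lost without 0 h replicate 3 (-0.63, adjusted p = 0.0519). That of psbH was lost without 0 h replicate 2 (-0.60, adjusted p = 0.0971), 0 h replicate 3 (-0.54, adjusted p = 0.13) or 3 h replicate 3 (-0.71, adjusted p = 0.0583). That of psbT was lost without 0 h replicate 2 (-0.68, adjusted p = 0.132), 0 h replicate 3 (-0.57, adjusted p = 0.207), 3 h replicate 1 (-0.82, adjusted p = 0.0717) or 3 h replicate 3 (-0.59, adjusted p = 0.189). The psbT call was also lost with a replicate block (adjusted p = 0.0504) and with a trended and robust prior (adjusted p = 0.0606). In a fit to the compared arrays alone psbT (adjusted p = 0.0849), psbH (adjusted p = 0.101) and ndhJ (adjusted p = 0.0604) were not called. Without 0 h replicate 1 the change of psbH was -1.22.

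Genes of darkness and sugar shortage fell together. In dim light or darkness plants burn amino acids and fats, and genes for this are shut off when sugar returns. Of 7 such genes 6 fell and 1 rose, with a median of -2.96. AT4G27450 read 12.63, 12.58 and 12.74 at 0 h and 7.22, 7.82 and 8.13 at 3 h (-4.92 ± 0.37, adjusted p = 2.57e-11). AT3G15450 went from 10.72, 11.16 and 11.40 to 6.81, 7.62 and 7.91 (-3.64 ± 0.45, adjusted p = 1.53e-07). MCCA, a subunit of the carboxylase of leucine breakdown, went from 12.65, 13.03 and 13.48 to 9.98, 9.76 and 9.53 (-3.30 ± 0.16, adjusted p = 7.23e-15). In all 3 genes the groups lay more than 2 units apart. The single riser SAG29, a senescence gene named after its value was seen, changed by 0.68 ± 0.25 (adjusted p = 0.0237). Its call was lost without 0 h replicate 1 (0.64, adjusted p = 0.0658), 0 h replicate 2 (0.60, adjusted p = 0.0801) or 3 h replicate 2 (0.56, adjusted p = 0.106).

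Further transcripts of the mitochondrial route of leucine breakdown fell. A list of 13 genes of branched-chain amino acid and fat breakdown was drawn from annotated names after the files were read. It shares MCCA and others with the one above. Of the 13 genes 11 fell and none rose, with a median of -0.85. IVD, the dehydrogenase before the carboxylase, went from 11.19, 11.67 and 11.91 to 8.70, 8.57 and 8.61 (-2.96 ± 0.17, adjusted p = 1.22e-13). MCCB, the second carboxylase subunit, fell by 2.08 (SE 0.14, adjusted p = 2.52e-12). ETFQO, which passes the electrons of this route to the respiratory chain, fell by 2.53 (SE 0.18, adjusted p = 5.95e-12). AKINBETA1, a subunit of the SnRK1 energy-sensing kinase, went from 11.30, 11.48 and 12.04 to 7.25, 7.38 and 7.45 (-4.25 ± 0.17, adjusted p = 3.26e-16).

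Autophagy genes were split within one family. ATG8 proteins coat the membrane that engulfs cell contents, and 9 of the 10 measured autophagy genes belong to that family. Of the 10, 8 fell and 2 rose. ATG8E went from 10.53, 11.11 and 11.16 to 8.32, 8.23 and 8.64 (-2.54 ± 0.23, adjusted p = 5.98e-10). ATG8F (-2.1 ± 0.12, adjusted p = 1.48e-13), APG8H (-1.22 ± 0.14, adjusted p = 4.82e-08) and ATG8C (-1.20 ± 0.13, adjusted p = 1.15e-08) fell by less. Despite the like names, APG8H and ATG8H are different genes. The 2 risers, named after their values were seen, were ATG8H, from 8.52, 9.34 and 8.96 to 9.81, 9.70 and 9.90 (0.87 ± 0.19, adjusted p = 0.000535), and ATG8D (0.64 ± 0.15, adjusted p = 0.000565). All 10 had groups without overlap, where 51.8% of probe sets did.

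Of 14 genes of auxin and shade growth 4 fell and none rose, with a median of -0.10. Over all probe sets 25.1% were called lower and 23.0% higher, so the share of falls lies near that of all probe sets. IAA29, a repressor of auxin response that shade switches on, read 9.86, 9.33 and 9.35 at 0 h and 3.45, 4.70 and 5.59 at 3 h (-4.93 ± 0.35, adjusted p = 9.5e-12). HAT2, a homeobox gene of the same response, went from 8.90, 8.74 and 8.96 to 6.66, 6.63 and 6.44 (-2.29 ± 0.18, adjusted p = 6.44e-11). YUC2, an enzyme that makes auxin (-1.06 ± 0.18, adjusted p = 2.48e-05), and IAA18 (-0.93 ± 0.13, adjusted p = 1.83e-06) fell by less. The 3 gibberellin receptors did not move together. GID1B rose from 6.10, 6.04 and 6.84 to 8.31, 8.24 and 8.52 (2.03 ± 0.19, adjusted p = 1.15e-09). GID1A (-1.01 ± 0.17, adjusted p = 1.65e-05) and GID1C (-0.83 ± 0.25, adjusted p = 0.00634) fell.

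Wall-loosening genes went both ways, with 6 of 24 higher and 7 lower and a median of -0.15. These shares lie near those of all probe sets, 23.0% higher and 25.1% lower. EXPA8, an expansin, went from 7.49, 7.54 and 7.66 to 4.07, 3.95 and 3.68 (-3.66 ± 0.21, adjusted p = 1.33e-13), and EXPA15 rose by 1.86 ± 0.24 (adjusted p = 4.3e-07). Of the xyloglucan transglycosylases, which cut and rejoin wall polymers, XTH19 went from 6.12, 6.48 and 5.09 to 9.18, 9.38 and 8.89 (3.25 ± 0.45, adjusted p = 1.01e-06). XTH18 rose by 2.22 ± 0.70 (adjusted p = 0.00994).

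Light signalling and clock genes were few on the annotated array. GI, a clock protein that shows its peak late in the day, went from 5.57, 5.40 and 5.74 to 9.79, 9.74 and 9.66 (4.16 ± 0.17, adjusted p = 2.84e-16). AT3G44450 went from 6.31, 5.49 and 5.27 to 10.72, 10.69 and 10.54 (4.96 ± 0.22, adjusted p = 1.96e-15). HYH, a partner of the light factor HY5, rose by 1.78 ± 0.14 (adjusted p = 1.06e-10). FHL, which carries phytochrome A into the nucleus, went from 7.01, 6.90 and 6.76 to 4.03, 4.41 and 3.73 (-2.84 ± 0.22, adjusted p = 3.48e-11). The groups of each were apart, and none of these 4 genes passed the test of a difference from wild type.

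Among regulators, 2 of 6 WRKY factors rose and 2 fell. WRKY53, a factor of leaf ageing and defence, went from 7.93, 7.56 and 7.22 to 10.08, 9.72 and 9.45 (2.18 ± 0.32, adjusted p = 2.78e-06). WRKY6 rose by 1.97 ± 0.20 (adjusted p = 5.74e-09) and WRKY47 fell by 0.68 (SE 0.20, adjusted p = 0.00674). WRKY42 fell by 0.46 (SE 0.16, adjusted p = 0.0183), a call lost without 0 h replicate 3 (-0.31, adjusted p = 0.145) or 3 h replicate 3 (-0.36, adjusted p = 0.0981). WRKY42 was also not called in a fit to the compared arrays alone (adjusted p = 0.0663). WRKY20 (-0.33 ± 0.15, adjusted p = 0.0666) was called after median centring (-0.42, adjusted p = 0.0174) and without 0 h replicate 2 (-0.41, adjusted p = 0.0447), and WRKY22 differed by -0.43 ± 0.26. Of 9 basic leucine zipper factors 4 rose and 4 fell. BZIP61 went from 7.81, 8.74 and 9.16 to 4.92, 5.27 and 5.96 (-3.19 ± 0.27, adjusted p = 3.14e-10), and BZIP34 fell by 2.3 (SE 0.21, adjusted p = 8.09e-10).

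U-box ubiquitin ligases, which mark proteins for the proteasome, rose in 5 of 9 cases and fell in none. Their list was also drawn from annotated names after the files were read. PUB19, a ligase of drought signalling, went from 4.66, 4.58 and 4.53 to 8.26, 8.07 and 7.44 (3.34 ± 0.23, adjusted p = 6.85e-12). PUB24 rose by 1.35 ± 0.18 (adjusted p = 6.32e-07). PUB23 rose by 1.25 ± 0.34 (adjusted p = 0.00338) but by 0.78 without 3 h replicate 3, where its call was lost (adjusted p = 0.0551). PUB22 rose by 0.90 ± 0.33 (adjusted p = 0.0267), a call lost without 0 h replicate 1 (0.70, adjusted p = 0.129) or 3 h replicate 3 (0.77, adjusted p = 0.0988). Without 3 h replicate 3, 3 of the 9 rose. After median centring, or without 0 h replicate 2, 2 members fell as well.

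**Figure D4:**
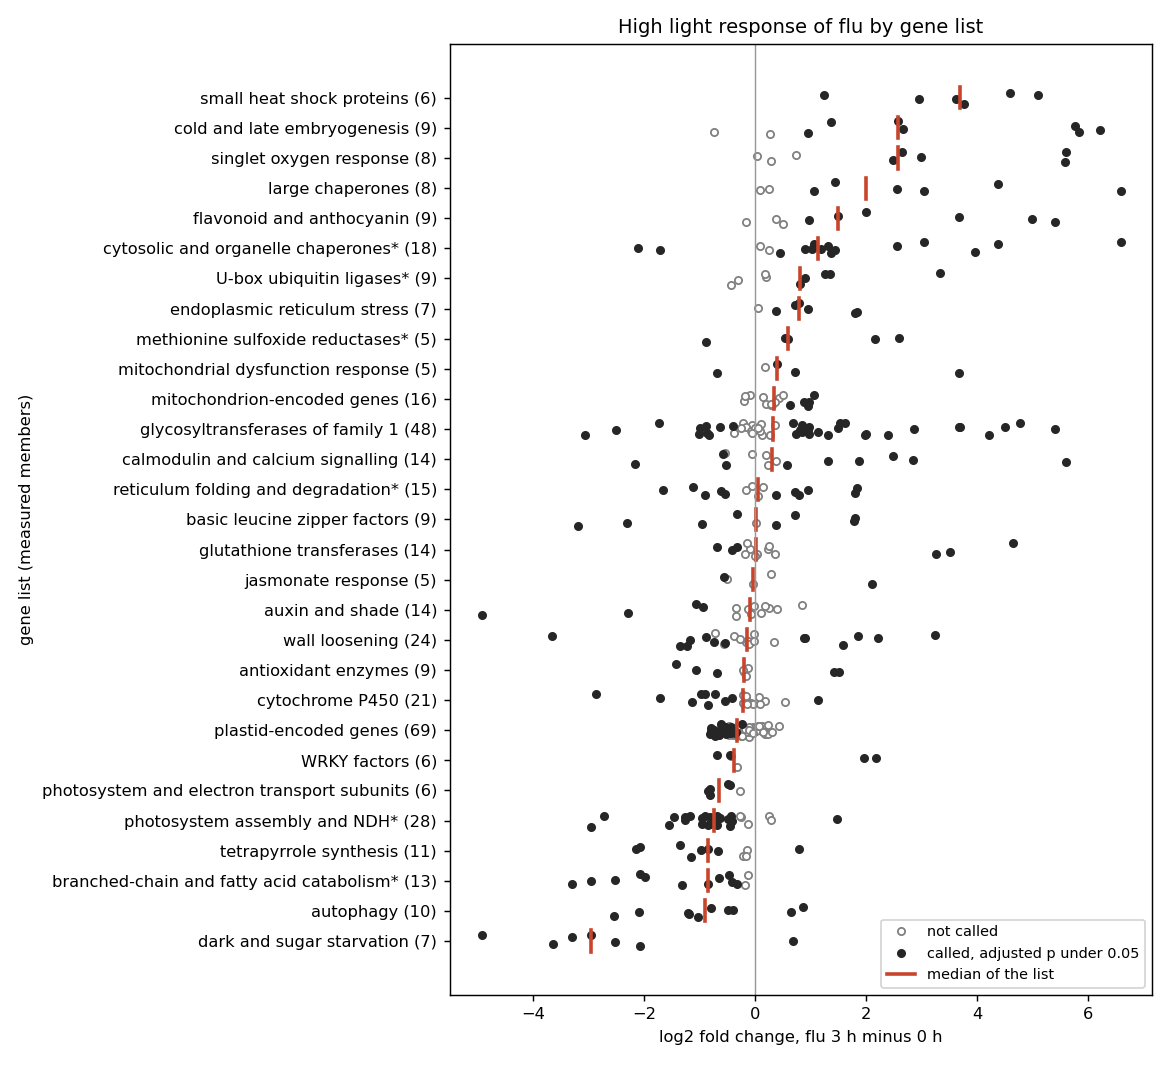
Log2 fold changes in flu, 3 h minus 0 h (horizontal axis), of the members of each gene list with at least 5 measured genes (vertical axis, number measured in brackets); filled points were called, open points were not, red bars are list medians, and an asterisk marks lists drawn from annotated names after the files were read. The small heat shock list has the highest median (3.70) and dark and sugar starvation genes the lowest (-2.96).

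The 15 named genes with the greatest rises and no overlap include 6 not yet described, which are named here only by locus. AT4G28140 went from 4.74, 4.73 and 4.47 to 10.45, 10.79 and 9.49 (5.59 ± 0.33, adjusted p = 2.54e-13). AT1G56060 rose by 5.30 ± 0.45, AT2G23910 by 5.30 ± 0.16, AT4G39670 by 5.21 ± 0.44 and AT5G53710 by 5.07 ± 0.37, each with an adjusted p of at most 2.23e-10. The sixth, AT2G38240, is described below. A further 25 probe sets without a single gene lay higher than the lowest of these 15. On the other side, AT5G48490 fell from 12.95, 12.83 and 13.43 to 7.87, 8.54 and 7.51 (-5.10 ± 0.23, adjusted p = 2.35e-15). AT3G19850 (-4.99 ± 0.29), AT3G62950 (-4.93 ± 0.35), AT5G62280 (-4.85 ± 0.22), AT4G38820 (-4.84 ± 0.18), AT5G16030 (-4.72 ± 0.23) and AT4G10910 (-4.72 ± 0.32) followed, and then AT1G49200 (-4.43 ± 0.25), AT2G20670 (-4.26 ± 0.32), AT2G41250 (-4.15 ± 0.20) and AT5G02540 (-4.14 ± 0.26). Of the brightest genes, with a mean of at least 12 on the flu arrays, CP5 (-2.17 ± 0.11, adjusted p = 1.15e-14) and AT3G62550 (-1.99 ± 0.20, adjusted p = 7.03e-09) fell and AT2G38870 rose (1.78 ± 0.29, adjusted p = 1.25e-05).

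How far the response was that of any seedling under strong light was asked by testing the flu response against that of wild type. The difference passed for 1912 probe sets, 8.41% of those tested, 1167 with a higher and 745 with a lower response in flu. Of the probe sets that were called both in flu and in the difference, 883 rose further in flu, 98 rose less, 451 fell further and 102 fell less. The 0 h arrays of flu and wild type are different plants, so the comparisons share no array. Wild type 0 h replicate 1 was brighter than the others, with a mean of 6.88 against 6.71 to 6.77 on the flu arrays.

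Several genes rose in flu with no such change in wild type. AT1G52560, the small heat shock gene, changed by -1.45 in wild type, where its arrays read 4.39 to 7.93 at 0 h and 4.28 to 4.52 at 3 h. The difference of the responses was 6.56 ± 0.84 (adjusted p = 1.45e-05). Leaving out 0 h arrays of wild type gave 7.27 (replicate 2) or 5.5 (replicate 3). The gene changed by -1.03 in mbs1-1, by -2.18 in RNAi-MBS2/mbs1-1 and by -0.12 in 35S:MBS1, values that were not tested against flu. ATHSP22.0 changed by 0.02 in wild type, so that the responses differed by 4.57 ± 1.09 (adjusted p = 0.00825), with wild type arrays from 2.99 to 7.89 at 0 h. That difference was 2.94 without wild type 0 h replicate 3, 5.39 without replicate 1 and 5.38 without replicate 2, and it was not called in a fit to the compared arrays alone (adjusted p = 0.0893). In 35S:MBS1 ATHSP22.0 changed by 2.34.

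Jasmonate-linked and detoxifying genes gave differences of similar size. JRG21, a gene named for its regulation by jasmonate, read 4.54, 8.09 and 4.40 in flu at 0 h and 9.67, 9.45 and 10.57 at 3 h (4.22 ± 0.54, adjusted p = 2.41e-07). Its 0 h replicate 2 was high, but all 3 h arrays lay above it. In wild type it changed by -0.02, a difference of 4.24 ± 0.76 (adjusted p = 0.000635). Without flu 0 h replicate 2 the change in flu was 5.43 and the difference 5.45, and without 0 h replicate 3 they were 3.58 and 3.60. AT2G38240 read 3.14, 6.04 and 3.25 at 0 h and 9.26, 8.21 and 10.75 at 3 h (5.26 ± 0.53, adjusted p = 5.41e-09), with the same array high at 0 h. It changed by 0.60 in wild type, so that the responses differed by 4.66 ± 0.75 (adjusted p = 0.000223). Without flu 0 h replicate 2, 3 h replicate 2 or 3 h replicate 3, the change in flu was 6.21, 5.86 or 4.59 and the difference 5.61, 5.26 or 3.99. UGT73B4 changed by 0.09 in wild type, so that the responses differed by 4.14 ± 0.58 (adjusted p = 4.38e-05). It changed by -1.38 in mbs1-1, by -1.89 in RNAi-MBS2/mbs1-1 and by -0.93 in 35S:MBS1.

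Another 3 loci completed the 8 highest differences. AT3G43250 went from 3.04, 3.20 and 2.83 to 7.17, 6.48 and 8.31 in flu, and its response lay 3.83 ± 0.59 above that of wild type (adjusted p = 0.000129). AT2G47950 went from 6.12, 6.25 and 4.58 to 8.95, 8.59 and 10.01, and its response lay 3.64 ± 0.55 above (adjusted p = 0.000113). AT1G15010 rose in flu by 1.38 ± 0.36 (adjusted p = 0.00246) and changed by -2.35 in wild type, so that the responses differed by 3.73 ± 0.51 (adjusted p = 3.39e-05).

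Lower responses in flu were smaller in size. LHCB4.3 changed by 3.11 in wild type, by 3.12 in mbs1-1, by 2.98 in RNAi-MBS2/mbs1-1 and by 3.13 in 35S:MBS1, against 1.48 in flu. Its wild type arrays read 10.13 to 10.37 at 3 h, all above the 8.68 to 8.87 of flu, and the difference of the responses was -1.62 ± 0.24 (adjusted p = 8.47e-05). AT5G61590, annotated as DEWAX, a repressor of wax synthesis, went from 10.95, 11.19 and 11.72 to 6.67, 6.43 and 7.29 in flu (-4.49 ± 0.26, adjusted p = 2.35e-13) and changed by -2.29 in wild type. The difference was -2.19 ± 0.37 (adjusted p = 0.000343). AT3G52070 (-2.18 ± 0.34, adjusted p = 0.000146) and AT2G29290 (-1.67 ± 0.35, adjusted p = 0.00319) also fell further in flu. So did AT1G78450 (-1.61 ± 0.27, adjusted p = 0.000378). AT1G57590 rose less, with a difference of -1.75 ± 0.37 (adjusted p = 0.00357).

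The 2 remaining genes of that end depended on single arrays. AT5G35480 had a difference of -1.66 ± 0.46 (adjusted p = 0.0241), which was lost without flu 0 h replicate 3 (-1.28), 3 h replicate 1 (-1.62) or 3 h replicate 3 (-1.47), or without wild type 0 h replicate 1 (-1.45), 3 h replicate 2 (-1.59) or 3 h replicate 3 (-1.61). AT4G01390 fell in flu by 1.1 (SE 0.36, adjusted p = 0.0117), not called without 0 h replicate 1 (-0.92, adjusted p = 0.0607) or 3 h replicate 2 (-0.90, adjusted p = 0.0664). Its difference of -1.63 ± 0.50 (adjusted p = 0.0426) was lost in 9 of the 12 fits that left out an array.

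**Figure D5:**
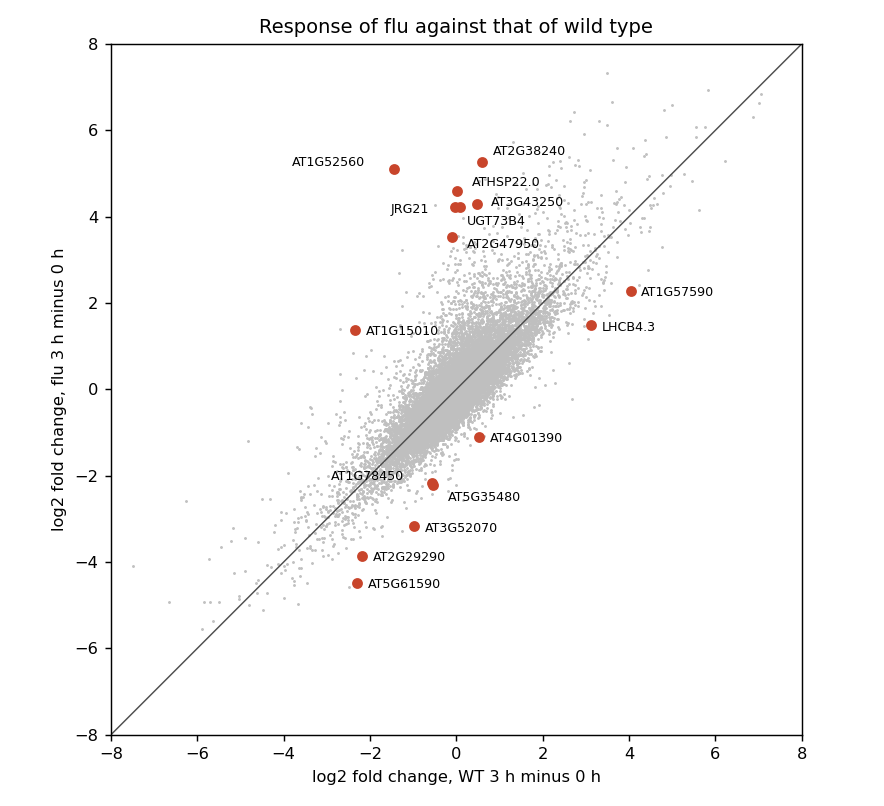
Log2 fold change from 0 h to 3 h in wild type (horizontal axis) and in flu (vertical axis) for 22746 probe sets (grey), with the 8 highest and 8 lowest differences among named genes called in flu and in the difference (red); the line marks equal change. AT1G52560 lies at -1.45 and 5.10, and LHCB4.3 at 3.11 and 1.48.

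Counted by list, 4 of the 6 genes of the small heat shock list, HSA32 among them, responded higher in flu than in wild type. So did 4 of the 8 singlet oxygen genes, 4 of the 9 cold genes and 4 of the 7 reticulum stress genes. None of these lists held a lower response. Over all probe sets 8.41% passed that test in either direction. Of those counted genes that are named in the text, ATHSP22.0, AT1G54050, AT3G01830, LEA4-5 and ATERDJ3B lost the call under at least 1 alternative. CML37 changed by 2.24 in wild type, so that the responses differed by 3.35 ± 0.37 (adjusted p = 2.03e-06). STZ of the same list rose by 3.09 in wild type, and its difference of -0.09 ± 0.54 was not called (adjusted p = 0.959). Of 10 autophagy genes 3 had a positive difference from wild type. ATG8H changed by -1.11 in wild type against 0.87 in flu. ATG8E fell less in flu, with -4.32 in wild type against -2.54. Of the 11 tetrapyrrole genes 1 responded higher, HEMA2 (-0.26 in wild type), and 3 lower, CHLM among them (-1.28 in wild type).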

How the data were processed

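Whole seedlings without root were profiled on 30 Affymetrix ATH1 arrays, 3 for each of 5 lines at 0 h and 3 h. Per the labels' protocols, the NucleoSpin RNA Plant kit was used for extraction and NuGEN's Encore module for biotin labelling of cDNA. The authors deposited log2 signals. Per the submitters' processing notes RMA and affy were used, with no versions stated. RMA fits all arrays together and compresses changes of dim probe sets. Depth has no counterpart on arrays, and the 3 arrays in a group limit the precision.

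Of 22810 probe sets 64 controls were left out and 22746 tested. The platform annotation gave 13513 a single gene, 503 several and 8730 none. Symbols were updated through the RefSeq gene table. A gene with several probe sets was represented in lists by the brightest.

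Group means over all 30 arrays were fitted with limma 3.58.1 in R 4.3.3 (lmFit, eBayes), with p-values adjusted by Benjamini-Hochberg across the 22746 probe sets and a threshold of 0.05. The contrasts were flu 3 h minus 0 h, and that response minus the wild type response. The code was tested on simulated data. Tables and figures were made in Python 3.11.15 with pandas 2.3.3 and matplotlib 3.10.9.

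The members and lists were chosen with earlier results of these data known. Genes with the same symbol but another role were dropped from lists after a check of their loci. Named genes were the 15 highest and 15 lowest called changes without overlap, up to 4 called members of each list described (all members of lists with 6 or fewer), the 8 highest and 8 lowest called differences from wild type, and AT3G28580. The 4 greatest called changes among genes with a mean of at least 12 were added to these. Genes outside this rule are marked where they are named, other than psaC and the genes used to check tissue and cell types.

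Other settings tried were median centring, quantile normalization, a filter on means under 5, a robust prior with a trend, a replicate term, single-gene probe sets alone, the compared arrays alone, and each array left out in turn. Leaving out both brighter arrays (wild type 0 h replicate 1 and, of mbs1-1, 3 h replicate 1), and single arrays for list counts, was chosen after seeing the data. Promoter sequences were not used here.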

Additional observations from a re-analysis of the deposited data

Results flagged for a closer look

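The genes below responded differently in flu and in wild type, by limma's test of the difference itself (flu response minus wild type response, log2, 3 arrays in each of 4 groups). Of the genes named in the report 61 passed. Genes of the small heat shock and chaperone lists were AT1G52560 (6.56), ATHSP22.0 (4.57), AT1G54050 (2.55), HSA32 (2.29), Fes1A (1.89) and AT1G71000 (1.60). In the reticulum DER1 (0.95) and ATERDJ3B (0.57) passed.

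Singlet oxygen and calcium genes were CML37 (3.35), CML38 (1.89), AT5G64870 (1.60) and AT3G01830 (1.5). Genes of cold and water loss were AT3G02480 (3.46), LTI30 (2.91) and LEA4-5 (1.96). Jasmonate genes were JRG21 (4.24) and JMT (1.08). Detoxifying and repair genes were UGT73B4 (4.14), GSTU22 (3.08), UGT76E12 (2.64), GSTU28 (1.69), UGT84A1 (1.05), MSRB3 (0.68) and GR1 (0.66).

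Organelle and energy genes with a positive difference were ATG8H (1.98), ATG8E (1.78), AT4G27450 (1.72), NDB2 (1.52), nad6 (1.1), nad4L (1.08), HEMA2 (1.04), NDB4 (0.94), MCCA (0.93), AKINBETA1 (0.89) and nad9 (0.89). Of these, ATG8E, AT4G27450, MCCA and AKINBETA1 fell in flu, by less than in wild type. Regulators were PUB19 (1.40), GID1B (1.17) and WRKY6 (1.14). Loci with no list were AT2G38240 (4.66), AT3G43250 (3.83), AT1G15010 (3.73), AT2G47950 (3.64), AT1G56060 (2.88), AT4G39670 (2.47), AT5G53710 (1.97) and AT4G28140 (1.87).

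Lower responses in flu were those of RCA (-0.53), PAM68 (-0.76), CHLM (-0.87), PRK (-0.92) and LHCB4.3 (-1.62) in the chloroplast. The others were AT4G38820 (-0.85), AT3G62550 (-0.92), AT2G23910 (-0.92), AT1G78450 (-1.61), AT4G01390 (-1.63), AT5G35480 (-1.66), AT2G29290 (-1.67), AT1G57590 (-1.75), AT3G52070 (-2.18) and AT5G61590 (-2.19).

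Of these 61 differences, 35 kept their call under every alternative and 26 lost it under some. Leaving out 1 array ended the call of AT1G71000, AT3G01830, AT5G53710, AT3G02480, AT4G27450, AT4G38820, AKINBETA1, ATERDJ3B, JMT, CHLM, RCA, LEA4-5, NDB2, NDB4, nad4L, nad9, PAM68, MSRB3, AT5G35480, AT4G01390 and AT3G62550. The difference of AT1G54050 was 1.72 without wild type 0 h replicate 3 and was not called in a fit to the compared arrays alone (adjusted p = 0.0722). That of AT3G02480 was 2.82 without flu 3 h replicate 1, where its call was lost, and 4.42 without flu 3 h replicate 3. That of LEA4-5 was 2.79 without flu 3 h replicate 3.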

How the results depend on the processing

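Of 174 fold changes in flu of genes named or chosen, 160 were called, 144 of them under every alternative, and 16 lost the call under some. Only probe sets of 1 gene, where fewer were tested, gave 6011 calls in flu (2363 of at least 1 on the log2 scale, 45.8% higher) and 969 differences from wild type. The fit to the compared arrays only, which has fewer samples, gave 1077 differences. The share of higher calls, 47.8%, was 46.6% without probe sets of a mean under 5, 45.1% after quantile normalization and 40.1% after median centring, and 46.2% to 48.8% when 1 flu array was left out. Leaving out 1 flu array turned the direction of 5 genes that were not called: PDF1.2 ranged from -2.15 to 1.72, PDF1.2b from -1.79 to 2.05, THI2.1 from -1.45 to 1.5, OSM34 from -0.093 to 4.01 and MYC4 from -0.25 to 0.16. The cause was not tested. Same-numbered flu arrays at 0 h and 3 h correlated at -0.02, -0.31 and -0.11 in their deviations. Deviations within a group of 3 arrays are tied to each other, so these values cannot decide whether arrays were paired by number. A replicate block gave 10972 calls, 4481 of at least 1, and 1935 differences. Both brighter arrays left out gave 11282 and 1693. Without detection calls, changes of genes near the bottom of the scale are limited by background signal.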
